A study of Mus musculus with 6 samples.

Results

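Receptor tyrosine kinases are membrane proteins that bind a growth factor, or a matrix protein, outside the cell and phosphorylate tyrosines inside it, to which adaptor proteins and enzymes then attach. They act in families that share their ligands: the ErbB receptors answer to EGF-like peptides and neuregulins, the PDGF receptor class to PDGFs, stem cell factor and CSF1, and MET and RET to HGF and to GDNF. In the testis, Sertoli cells make several of these ligands, among them stem cell factor and GDNF, whose receptors KIT and RET are known from germ cells, while PDGF receptor α is known from Leydig and other interstitial cells. Described here are 30 receptors of mouse outside the EPH and FGFR families, chosen by name, with no measured value in the rule. Of these, 29 were among the 28262 genes of the count table. Tie1 was not analysed here.

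RNA was sequenced from primary Sertoli cells of C57BL/6 mice aged 20 days. Pa1F/F cells, with floxed Pa1 alleles and no stated Cre, were the control (3 libraries), and Amh-pa1-/- cells, in which these alleles are deleted by a Cre driven by the Amh promoter, were the knockout (3 libraries). All cells were untreated, and per the study's methods they were cultured briefly in a medium with insulin, EGF and transferrin and washed to remove germ cells that had not attached. PA1 is a nuclear protein that the study examined together with JUN, a subunit of the transcription factor AP-1, and the comparison asks which transcripts differ when Sertoli cells lack it. The Pa1 transcript was not analysed here, so genotypes rest on the labels. The study's methods mention biological replicates, but the labels do not say whether the replicates came from separate animals or cultures. The p-values then measure only the spread between these libraries, which may be technical.

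Libraries held between 13203757 and 16231443 counts on genes. A count of 3, used here as the floor, corresponded to 0.185 to 0.227 CPM (counts scaled to library size). The replicates were unevenly spaced: control replicates 1 and 3 differed by a median of 0.0940 per gene on the log2 scale and knockout replicates 1 and 2 by 0.0894. Control replicate 2 differed from control replicates 1 and 3 by 0.142 and 0.149, and knockout replicate 3 from the other knockout replicates by 0.219 and 0.218. Of 15 Sertoli cell markers 13 were tested, with a summed level of 250883 to 255453 normalized counts in control and 153672 to 194465 in knockout cells, most of it from Clu (193368 and 119830 on average, log2 fold change −0.69). Their median log2 fold change was −0.12, and 1 of the 13 was differentially expressed, Inha, which was lower. By the adjusted p-value alone 4 were lower, among them Gata4 (−0.88), and 1 was higher, Dmrt1 (0.64). Knockout replicate 3 stood apart in Amh, at 43.9, 48.4 and 365 normalized counts in knockout replicates 1, 2 and 3 against 179 to 254 in control cells. It also did in Gata1, at 565, 585 and 246 against 242 to 264. Rhox5 and Trf stood below 20 normalized counts in every library. In RNA from a mixed preparation, fewer cells of a type and less RNA per cell cannot be told apart. Markers of Leydig cells summed to 12326 to 13716 normalized counts in control and 2607 to 4898 in knockout cells. Most of this came from Star (7911 and 2628 on average) and Cyp11a1 (4386 and 364). Insl3, Cyp17a1 and Hsd3b6 had at most 4.51 normalized counts in any library. Markers of mesothelial cells summed to 65.8 to 109 and 383 to 506. Of these, Upk3b, Krt19 and Lrrn4 were higher, and Msln had the opposite sign without passing (61.9 and 43.0 on average, log2 fold change −0.53).

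Of the 29 receptors, 23 had enough counts to be tested, 10 were differentially expressed, and 13 did not pass both thresholds (an adjusted p-value under 0.05 and a log2 fold change of at least 1 in size). Kit, Csf1r, Pdgfra, Met, Ret, Ntrk2 and Ror1 were lower in knockout cells, which is 7 receptors or 30.4% of those tested, beside 6.56% of all 14919 tested genes. Erbb4, Insrr and Styk1 were higher, which is 3 receptors or 13.0%, beside 5.44% of all genes. Over both directions 12% of all genes were differentially expressed. The adjusted p-value alone also placed Egfr among the lower receptors and Ryk among the higher ones, where 17.1% and 18.2% of all genes passed. These shares are descriptions only, since Kit and Ntrk2 reached the filter on low counts in control libraries alone and Insrr in knockout libraries alone, and Csf1r and Ret reached it in 2 and 1 of the knockout libraries. The median log2 fold change of the 23 tested receptors was −0.14, compared with 0.0020 for all tested genes. Control and knockout values did not overlap for 13 of them (56.5%), beside 52.4% of all genes in either direction and 26.1% of all genes lower in knockout.

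**Figure D1:**
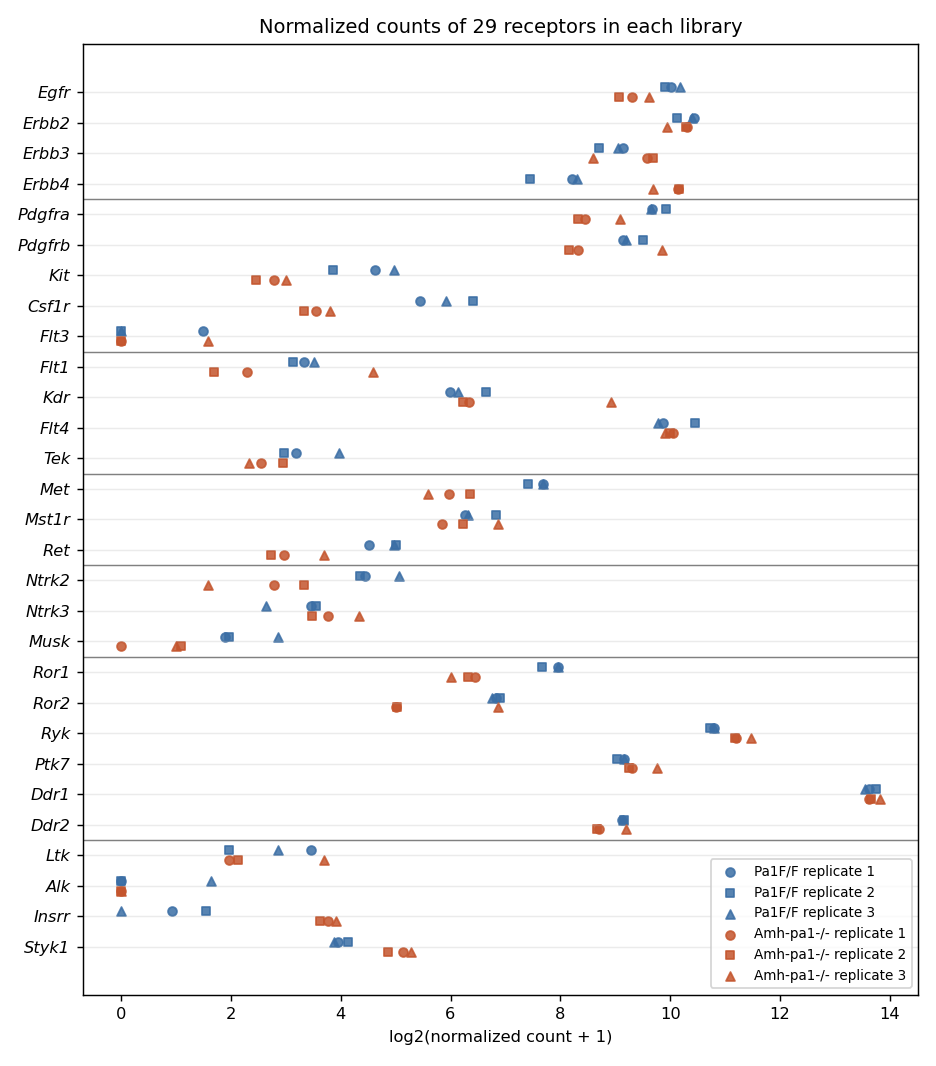
Normalized counts of the 29 receptors on a log2(count + 1) axis, 1 symbol per library (blue Pa1F/F, orange Amh-pa1-/-, shapes are replicates), with lines between families. Erbb4, Insrr and Styk1 have all orange symbols to the right of all blue ones, Ddr1 lies farthest right in every library, and for Kdr, Pdgfrb and Ror2 the orange triangle (knockout replicate 3) lies apart from the other orange symbols.

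**Figure D2:**
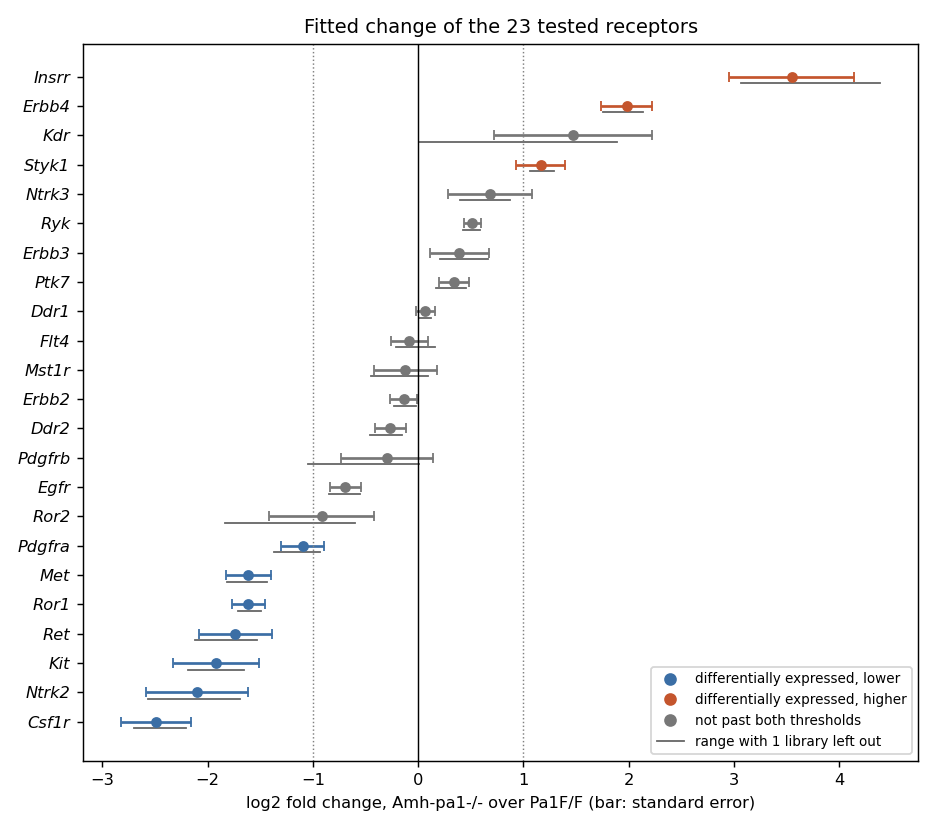
Fitted log2 fold changes (knockout over control) of the 23 tested receptors with standard errors, from edgeR, and below each the range obtained when 1 library is left out. From Csf1r (−2.49) to Pdgfra (−1.10) the 7 lower receptors lie left of the dotted line at −1, and the ranges of Kdr, Pdgfrb and Ror2 are wide.

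Among the ErbB receptors, Erbb4, a receptor for neuregulins and several EGF-like ligands, rose about 4-fold in knockout cells, and Egfr, the receptor of EGF and TGFα, was lower by less than 2-fold. Erbb4 had 296, 173 and 314 normalized counts in control replicates 1, 2 and 3, and 1132, 1139 and 825 in the knockout replicates. The lowest knockout value was more than 2 times the highest control value, and the log2 fold change was 1.98 ± 0.24 (SE, adjusted p = 0.00156, quasi-likelihood test of edgeR, Benjamini-Hochberg adjusted). Erbb4 lies on chromosome 1 (68032186 to 69108059, GRCm38). Leaving out any library left its log2 fold change between 1.76 and 2.13. Egfr had 1038, 958 and 1159 normalized counts in control and 632, 537 and 785 in knockout cells. Its groups also did not overlap, with a log2 fold change of −0.69 ± 0.15 (SE, adjusted p = 0.0114), which is under the fold threshold. Erbb2, which binds no ligand of its own and pairs with the other ErbB receptors, overlapped between the groups with 1379, 1113 and 1355 against 1268, 1250 and 981 (log2 fold change −0.14, adjusted p = 0.438). Erbb3, a neuregulin receptor with little kinase activity, had 564, 416 and 528 in control cells and 767, 825 and 385 in knockout cells, so that knockout replicate 3 lay below every control library and the others above (0.39, adjusted p = 0.321). Without knockout replicate 3 its log2 fold change was 0.67 (adjusted p = 0.00604), under the fold threshold.

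Ligand genes of these receptors that passed the adjusted p-value were all higher in knockout cells. Egf had 233, 178 and 281 normalized counts in control and 634, 579 and 489 in knockout cells (log2 fold change 1.30, adjusted p = 0.00251). Ereg, which encodes epiregulin, had 78.8, 85.2 and 83.9 against 298, 315 and 214 (1.74, adjusted p = 0.000694). Both rose while Egfr was lower and Erbb4, which epiregulin also binds, rose. Betacellulin (Btc), a ligand of EGFR and ERBB4, had a log2 fold change of 0.99 (adjusted p = 0.00726), just under the fold threshold, and Tgfa one of 0.67 (adjusted p = 0.0355). The neuregulins Nrg1 (0.46, adjusted p = 0.133), Nrg2 (0.14, adjusted p = 0.656) and Nrg4 (−0.34, adjusted p = 0.413) and the EGFR and ERBB4 ligand Hbegf (−0.12, adjusted p = 0.674) did not pass. Areg, which encodes amphiregulin, was near the floor in both groups and was not tested.

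In the PDGF receptor class, which shares an extracellular part of immunoglobulin domains and a split kinase domain, Pdgfra, Kit and Csf1r were lower in knockout cells. Pdgfra, the receptor that binds PDGF-A, had 816, 966 and 804 normalized counts in control and 349, 318 and 542 in knockout cells. All knockout values were below all control values, and the log2 fold change was −1.10 ± 0.21 (SE, adjusted p = 0.00731). Its size lay close to the threshold: it was −0.999 without knockout replicate 1 and −0.94 without knockout replicate 2, and in both cases no longer counted as differentially expressed. Kit, the receptor of stem cell factor, had 23.6, 13.6 and 30.4 normalized counts in control and 5.86, 4.51 and 7.01 in knockout cells. The groups did not overlap, at a log2 fold change of −1.92 ± 0.41 (SE, adjusted p = 0.0116), and the knockout values correspond to few reads (6, 4 and 7). Pdgfra lies on chromosome 5 at 75152292 to 75198215 and Kit at 75574916 to 75656722. Flt3, the receptor of FLT3 ligand, had 2 reads in control and 2 in knockout cells in all and was not tested.

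Pdgfrb, the other PDGF receptor and a gene of mural cells and fibroblasts, depended on a single library. It had 563, 725 and 583 normalized counts in control cells and 318, 283 and 921 in knockout cells. Knockout replicates 1 and 2 lay below all control libraries and replicate 3 above them, and the log2 fold change was −0.30 ± 0.44 (SE, adjusted p = 0.636). Without knockout replicate 3 it was −1.05 (adjusted p = 0.000980) and past both thresholds. The 6 fibroblast markers summed to 31961, 31769 and 59753 normalized counts in knockout replicates 1, 2 and 3 and to 52312 to 65168 in control cells, and the pericyte markers to 2794, 2658 and 2935 against 4448 to 5075, where Cspg4 made up nearly all of the sum. The other pericyte markers were highest in knockout replicate 3 among the knockout libraries, at 8.79, 9.01 and 44.1 normalized counts for Abcc9, 28.3, 16.9 and 33.1 for Notch3 and 2.93, 4.51 and 9.02 for Rgs5. The fibroblast sum, nearly all from Col1a1, Col1a2 and Col3a1, was thus higher in knockout replicate 3 than in the other knockout replicates, as Pdgfrb was. In knockout replicates 1, 2 and 3 the other fibroblast markers were at 1531, 1359 and 1867 (Dcn), 46.9, 34.9 and 48.1 (Tcf21) and 5.86, 5.63 and 6.01 (Lum). The part of these cells in the Pdgfrb values was not tested.

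The ligands of the class differed from the receptors in sign or size. Kitl, which encodes stem cell factor, had 5219, 4791 and 5296 normalized counts in control and 7275, 7271 and 5396 in knockout cells, with a log2 fold change of 0.38 that missed the threshold (adjusted p = 0.0505). Pdgfa was lower by the adjusted p-value alone (−0.54, adjusted p = 0.0257) and Pdgfd, a ligand of PDGF receptor β, was higher by it (0.91, adjusted p = 0.00308). Pdgfb (−0.17, adjusted p = 0.556) and Pdgfc (0.59, adjusted p = 0.0757) did not pass. Leydig cell markers, of which 3 of the 4 tested were lower, moved in the same direction as Pdgfra and Kit, with most of their sum from Star and Cyp11a1. Of 11 spermatogonial markers, 3 were tested and 1 was lower. Their sums were 2817 to 3201 and 1648 to 2949 normalized counts, nearly all from Uchl1 (3022 and 2371 on average). Zbtb16, Sall4, Lin28a, Stra8 and Sohlh1 had at most 3 reads in any library. The 3 tested markers differed in sign, with log2 fold changes of −1.64 for Ddx4 (adjusted p = 0.0373), 2.09 for Id4 (adjusted p = 0.0520) and −0.35 for Uchl1. The part of these cell types in the values of Pdgfra and Kit was not tested.

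Csf1r, the receptor of CSF1 and IL-34 and a macrophage gene, had the lowest log2 fold change of the 23 tested receptors. It had 42.6, 84.2 and 59.8 normalized counts in control and 10.7, 9.01 and 13.0 in knockout cells. The means were 62.2 ± 20.9 and 10.9 ± 2.01 (SD, n = 3), every knockout value lay below every control value, and the log2 fold change was −2.49 ± 0.33 (SE, adjusted p = 0.00213). Hmgxb3, which overlaps it on the opposite strand, had 880 to 984 normalized counts in all libraries (log2 fold change 0.047, adjusted p = 0.601), so reads assigned to Csf1r are uncertain where the genes overlap. Of 13 macrophage markers other than Csf1r, 10 were tested and 8 were lower, with a median log2 fold change of −2.73. Their summed level was 1881 to 2068 normalized counts in control and 1117 to 1382 in knockout cells, and no marker of the list was at 0 in all 3 knockout libraries. Mrc1, the most abundant of them, did not pass (984 ± 38.8 and 1109 ± 155 normalized counts, SD, n = 3, adjusted p = 0.254), and the sum of the other 12 was 859 to 1082 in control and 153 to 185 in knockout cells. The part of macrophages in the Csf1r values was not tested. The ligand genes Csf1 (846, 2459 and 1002 in control, 1559, 1330 and 2979 in knockout cells) and Il34 (268, 268 and 232 against 287, 333 and 49.1) overlapped between the groups, with log2 fold changes of 0.45 (adjusted p = 0.498) and −0.20 (adjusted p = 0.811).

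**Figure D3:**
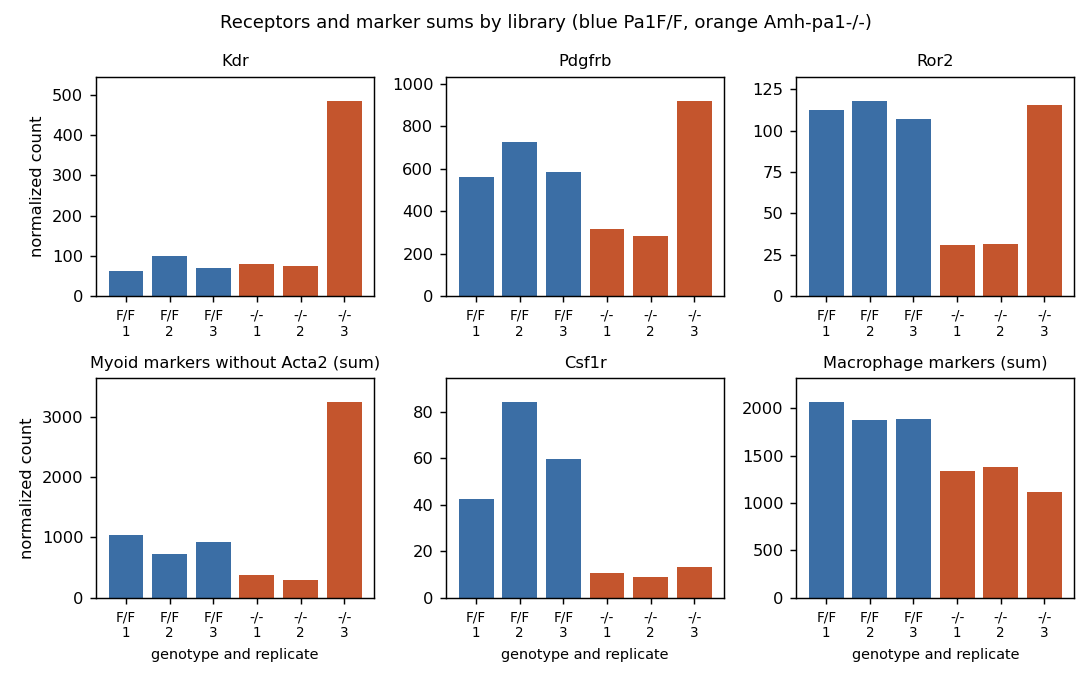
Normalized counts of Kdr, Pdgfrb, Ror2 and Csf1r in each library (F/F, Pa1F/F; -/-, Amh-pa1-/-; numbers are replicates), with the summed counts of 5 peritubular myoid cell markers without Acta2 and of 13 macrophage markers. Knockout replicate 3 is the highest library for Kdr (485), Pdgfrb (921) and the myoid sum (3255), and all 3 knockout libraries are below the control ones for Csf1r and the macrophage sum. Acta2, left out of the myoid sum, was higher in all 3 knockout libraries, and Mrc1, which did not pass, is part of the macrophage sum.

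The VEGF and angiopoietin receptors, known from endothelium, gave no call. Kdr, the main VEGF-A receptor, had 62.5, 99.7 and 69.2 normalized counts in control and 80.0, 74.4 and 485 in knockout cells. Only knockout replicate 3 lay outside the range of the others, and the log2 fold change of 1.47 ± 0.75 (SE, adjusted p = 0.172) became 0.0043 (adjusted p = 0.991) without it. Flt1, a VEGF receptor that acts in part as a decoy, also had its highest value in knockout replicate 3, at a level too low to test, with 10, 8 and 10 reads in control and 4, 2 and 23 in knockout cells. Flt4, the receptor of VEGF-C, had 933, 1405 and 879 normalized counts in control and 1059, 1022 and 957 in knockout cells (−0.083, adjusted p = 0.746). Tek, the angiopoietin receptor, had 8.16, 6.78 and 14.7 against 4.88, 6.76 and 4.01 and was not tested. Among the ligands, Vegfa was higher by the adjusted p-value alone (0.83, adjusted p = 0.00315) and Vegfc lower (−0.85, adjusted p = 0.0398). Nrp1, a co-receptor of KDR, was lower (−1.003, adjusted p = 0.0165, passing in 2 of the 6 fits with a library left out), as was Nrp2, which pairs with FLT4, by the adjusted p-value alone (−0.41, adjusted p = 0.00495). Of 12 endothelial markers 4 were tested, with sums of 1927 to 2084 normalized counts in control and 1087 to 1290 in knockout cells, of which Cdh5 made up the most. Pecam1 was lower (−1.73) and Vwf higher (1.63), so that the tested markers differed in sign. Erg and Cldn5 were at 0 in every knockout library and in all but 1 control library.

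Among the tested receptors, Kdr, Pdgfrb and Ror2 were those in which knockout replicate 3 was at least 2 times the mean of knockout replicates 1 and 2, at 6.28, 3.06 and 3.67 times. These are 3 of the 23 tested receptors (13.0%), compared with 4.53% of all tested genes. Of the receptors not tested, Flt1 (7.49 times) and Ltk (3.81 times) also met this, at low counts, and Flt3 had reads in knockout replicate 3 alone among the knockout libraries. Ror2, a receptor of WNT5A, had 31.2, 31.5 and 115 normalized counts in knockout cells and 112, 118 and 107 in control cells. Peritubular myoid cell markers did not move as 1 group. Acta2, the most abundant of the 6, was higher in all 3 knockout libraries, at 12312, 11886 and 15383 normalized counts against 2537 to 3239 in control cells (log2 fold change 2.15, adjusted p = 0.000169), and the sum with it was 12679, 12179 and 18639 against 3264 to 4164. The sum of the other 5, a split made after the values were seen, was 367, 293 and 3255 in knockout replicates 1, 2 and 3 and 727 to 1033 in control cells. Markers of other cell types also met the ratio of 2, such as Amh of Sertoli cells (7.90 times), Hsd17b3 of Leydig cells (3.46) and Id4 of spermatogonia (4.40). The Sertoli cell marker Gata1 was at 0.429 times. The part of any of these cells in the 3 receptors was not tested. For control replicate 2, the corresponding share was 2.63% of all genes, and among the receptors Insrr alone met it, on 2 reads.

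Pdgfra, Kit and Kdr are neighbours on chromosome 5, with 376.7 kb and 276 kb between them and no other gene of the table listed in between. The first and second in this order were lower and Kdr did not pass, and the difference between the genes was not tested. RefSeq promoter windows (250 bases before to 50 after the start, build GRCm38.p6) of these neighbours are shown because the genes lie side by side. They are Pdgfra at chr5:75152001-75152300 (plus strand), Kit at chr5:75574737-75575036 (plus strand) and Kdr at chr5:75978406-75978705 (minus strand), each written 5′ to 3′ on the strand of the gene. Capitals mark GGGCGG on either strand (CCGCCC on the other), the GC box letters that SP1-type factors are known to bind.
Pdgfra: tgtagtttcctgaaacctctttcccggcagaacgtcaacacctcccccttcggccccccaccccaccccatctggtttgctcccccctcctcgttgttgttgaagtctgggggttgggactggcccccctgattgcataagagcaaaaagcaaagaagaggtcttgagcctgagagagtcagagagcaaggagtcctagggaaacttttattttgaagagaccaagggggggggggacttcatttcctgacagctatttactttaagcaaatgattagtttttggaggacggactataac
Kit: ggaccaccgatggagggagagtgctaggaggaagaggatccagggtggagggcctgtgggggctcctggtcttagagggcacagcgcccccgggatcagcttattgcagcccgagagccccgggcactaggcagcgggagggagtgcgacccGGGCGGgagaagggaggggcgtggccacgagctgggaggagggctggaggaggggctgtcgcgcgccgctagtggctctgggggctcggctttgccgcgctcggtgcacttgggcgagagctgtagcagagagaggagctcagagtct
Kdr: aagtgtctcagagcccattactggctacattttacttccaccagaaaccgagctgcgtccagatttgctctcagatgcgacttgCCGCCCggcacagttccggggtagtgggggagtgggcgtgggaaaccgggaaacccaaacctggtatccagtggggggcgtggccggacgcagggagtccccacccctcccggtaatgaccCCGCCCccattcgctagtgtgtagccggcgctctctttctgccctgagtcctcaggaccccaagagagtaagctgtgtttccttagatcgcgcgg

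The Pdgfra window held no such match, that of Kit 1 at −98 and that of Kdr 2 at −166 and −45 (first base, relative to the start). GGGCGG occurred in 64.3% of the 28 receptor windows searched, from 23 receptors (22 of them in the count table), and in 35.7% of all 32851 windows. Any receptor windows on chromosome 18, where Pdgfrb and Csf1r lie, were left out, whereas the set of all windows was not restricted in this way. The receptor windows held a median of 18.5 CpG dinucleotides, compared with 7 over all windows. A match is a description of letters and no evidence of binding.

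Met and Ret were lower together with their ligands and a co-receptor. Met, the HGF receptor, on chromosome 6 (17463800 to 17573980), had 205, 169 and 205 normalized counts in control and 61.5, 81.1 and 47.1 in knockout cells. The groups lay well apart, with a log2 fold change of −1.61 ± 0.21 (SE, adjusted p = 0.00202) that stayed between −1.81 and −1.44 when any library was left out. Hgf had 151, 158 and 153 against 65.4, 63.1 and 63.1 (−1.27, adjusted p = 0.000612). Ret, on chromosome 6 (118151745 to 118197718), had 21.7, 31.0 and 30.4 normalized counts in control and 6.83, 5.63 and 12.0 in knockout cells. These values did not overlap either, at −1.74 ± 0.35 (SE, adjusted p = 0.00945). Its ligand Gdnf, a Sertoli cell factor for spermatogonial stem cells, had 710, 654 and 737 against 278, 295 and 267 (−1.32, adjusted p = 0.000159). Gfra1, the GDNF-binding co-receptor of RET, had 36.2, 27.1 and 48.2 against 12.7, 13.5 and 11.0 (−1.57, adjusted p = 0.00726). Ligand and receptors of both pairs thus had the same sign, with groups that did not overlap. Beside Ret and Gfra1, which are known from spermatogonia, Ddx4, a germ cell marker, was lower as well, at 21.7, 13.6 and 13.6 against 1.95, 7.89 and 6.01 (−1.64, adjusted p = 0.0373), while the other tested spermatogonial markers, Id4 (2.09, adjusted p = 0.0520) and Uchl1 (−0.35, adjusted p = 0.300), did not pass, and the part of germ cells in these values was not tested. Mst1r, the receptor of macrophage-stimulating protein, overlapped between the groups, at 76.1, 113 and 78.7 in control and 56.6, 74.4 and 115 in knockout cells (−0.12, adjusted p = 0.779), and its ligand gene Mst1 was at 0 to 3.87 normalized counts.

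Among the neurotrophin receptors and MUSK, Ntrk2, the BDNF receptor, was lower while its ligand gene Bdnf was higher. Ntrk2, on chromosome 13 (58806569 to 59133970), had 20.8, 19.4 and 32.5 normalized counts in control and 5.86, 9.01 and 2.0 in knockout cells. No knockout value reached a control one, at −2.10 ± 0.48 (SE, adjusted p = 0.0155), but the adjusted p-value was 0.0589 without control replicate 3 and 0.0532 without knockout replicate 1. Bdnf had 107, 97.8 and 121 against 365, 355 and 235 (1.55, adjusted p = 0.00165), and Ntf5, the gene of the other NTRK2 ligand, did not pass (0.31, adjusted p = 0.184). Ngfr, a neurotrophin co-receptor, was lower with 34.4, 26.1 and 29.4 against 2.93, 7.89 and 18.0 (−1.63, adjusted p = 0.0485), a call that held in 1 of the 6 fits with a library left out (−2.48 to −1.18). Ntrk3, the NT-3 receptor, had 9.97, 10.7 and 5.24 against 12.7, 10.1 and 19.0 (0.68, adjusted p = 0.221). Musk, the agrin-signalling receptor of the neuromuscular junction, had 12 reads in the 3 control libraries and 2 in the knockout libraries and was not tested. The ratio of these sums was 0.177 (95% exact interval 0.0192 to 0.795, counting error only). Lrp4, its agrin-binding partner, was lower at 103, 82.3 and 103 against 36.1, 37.2 and 40.1 (−1.34, adjusted p = 0.00176), and agrin itself (Agrn) overlapped between the groups (−0.12, adjusted p = 0.885).

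**Figure D4:**
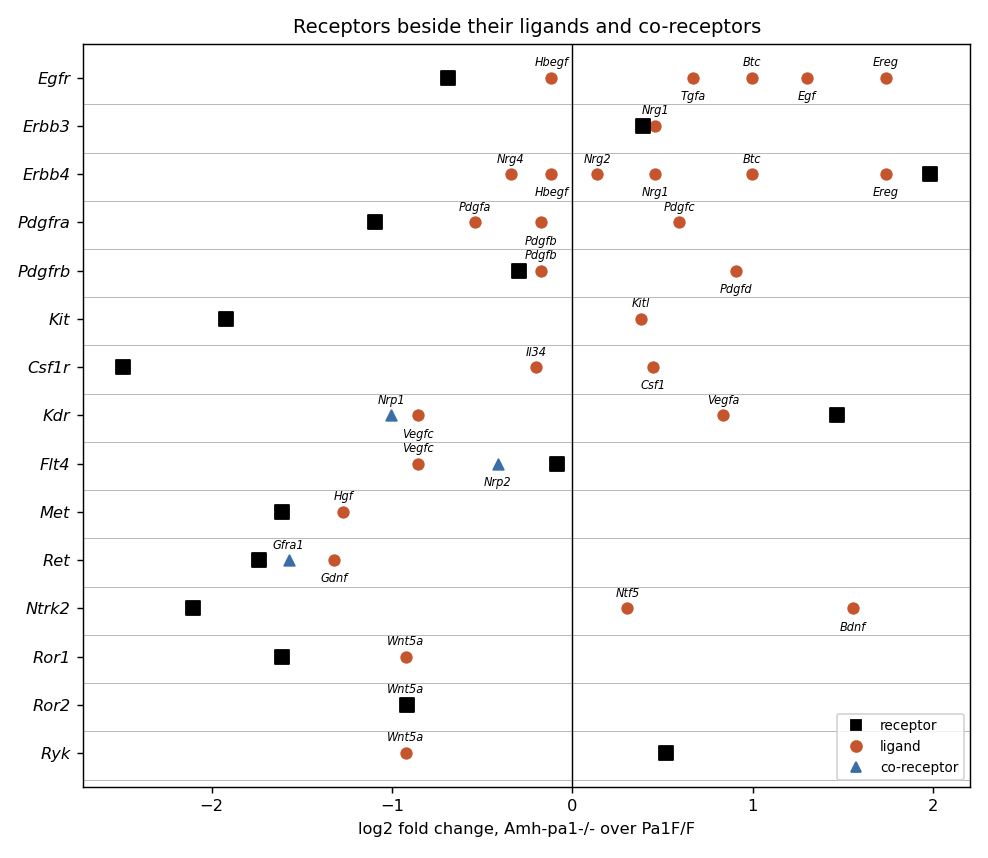
Log2 fold changes (knockout over control) of receptors (squares), their tested ligands (circles) and co-receptors (triangles), 1 line per receptor; the vertical line is no change. Met, Ret and their partners lie left of it, whereas Ntrk2 (−2.10) and Bdnf (1.55), and Egfr (−0.69) and Ereg (1.74), lie on opposite sides.

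The Wnt-binding receptors differed among themselves. Ror1, a receptor of WNT5A with little kinase activity, on chromosome 4 (100095791 to 100444765), had 248, 202 and 246 normalized counts in control and 85.9, 78.9 and 63.1 in knockout cells. The groups lay far apart relative to their spread, with a log2 fold change of −1.61 ± 0.16 (SE, adjusted p = 0.000731), the smallest adjusted p-value among the receptors. The log2 fold change of Ror2 was −0.92 ± 0.50 (SE, adjusted p = 0.195) over all libraries, and −1.84 (adjusted p = 0.000226) without knockout replicate 3. Ryk, a Wnt receptor with an inactive kinase domain, had 1779, 1681 and 1776 against 2360, 2308 and 2820, a log2 fold change of 0.52 ± 0.085 (SE, adjusted p = 0.00452) under the fold threshold. Wnt5a, the ligand of all 3, had 1233, 1100 and 1282 against 605, 662 and 639 and passed the adjusted p-value alone (−0.92, adjusted p = 0.000445). Ptk7, a pseudokinase of planar cell polarity, had 567, 522 and 569 against 629, 609 and 866, without overlap but without passing the test (0.34, adjusted p = 0.106).

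The collagen receptors Ddr1 and Ddr2 did not pass the test. Ddr1 had 12514, 13719 and 11948 normalized counts in control and 12610, 12874 and 14540 in knockout cells. These ranges overlapped, and the log2 fold change was 0.068 ± 0.088 (SE, adjusted p = 0.585). Ddr2 had 558, 567 and 561 against 415, 404 and 585, where again knockout replicate 3 was nearest to the control libraries (−0.26, adjusted p = 0.208).

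TGANTCA, the letters to which AP-1 is known to bind, were found in 1 promoter window each of Met, Ror2 and Ddr1 (searched on both strands, which this palindromic motif shares), always as TGAGTCA and in capitals below. These windows are shown because they are the ones among the receptors with these letters. Met was lower, Ddr1 did not pass, and Ror2 passed only without knockout replicate 3; differences between the genes were not tested. They lie at chr6:17463707-17464006 (Met, plus strand), chr13:53286075-53286374 (Ror2, minus strand) and chr17:35701995-35702294 (Ddr1, minus strand; 1 of 4 windows of this gene), from RefSeq, build GRCm38.p6.
Met: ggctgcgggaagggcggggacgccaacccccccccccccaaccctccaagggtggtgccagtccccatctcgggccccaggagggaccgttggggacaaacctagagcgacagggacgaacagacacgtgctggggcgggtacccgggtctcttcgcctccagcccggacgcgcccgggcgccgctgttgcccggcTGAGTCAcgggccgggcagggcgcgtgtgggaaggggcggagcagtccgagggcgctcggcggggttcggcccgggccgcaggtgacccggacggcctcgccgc
Ror2: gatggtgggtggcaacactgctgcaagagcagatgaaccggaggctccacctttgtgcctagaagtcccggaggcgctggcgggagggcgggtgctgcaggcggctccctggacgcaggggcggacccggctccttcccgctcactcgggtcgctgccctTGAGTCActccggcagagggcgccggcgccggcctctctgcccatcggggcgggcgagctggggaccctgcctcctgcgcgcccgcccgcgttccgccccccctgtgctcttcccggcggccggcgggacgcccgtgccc
Ddr1: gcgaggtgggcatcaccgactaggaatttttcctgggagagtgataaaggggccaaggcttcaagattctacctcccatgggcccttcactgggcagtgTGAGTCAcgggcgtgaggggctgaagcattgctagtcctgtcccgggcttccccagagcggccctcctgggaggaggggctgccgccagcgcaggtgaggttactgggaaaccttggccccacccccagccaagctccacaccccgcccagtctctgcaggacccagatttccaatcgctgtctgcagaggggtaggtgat

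The first base of the match was at −54 in Met, −90 in Ror2 and −151 in Ddr1. The 3 windows are 10.7% of the 28 receptor windows, compared with 7.81% of all windows. No other receptor window searched held these letters, which says nothing of other positions, of receptors without a searched window or of the factor.

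Of the remaining receptors, Insrr and Styk1 were higher in knockout cells at low counts. Insrr, the insulin receptor-related receptor, which responds to alkaline pH, on chromosome 3 (87796951 to 87816101), had 1, 2 and 0 reads in control and 13, 10 and 14 in knockout cells. The summed reads gave a ratio of 13.1 after division by library size, with a 95% exact interval of 4.15 to 66.4 that covers counting error only. The fit gave an adjusted p = 0.00478. Insrr overlaps Pear1 on the opposite strand, which had 296 to 331 normalized counts in all libraries (log2 fold change −0.013, adjusted p = 0.922), so that assignment of reads to Insrr is uncertain. Styk1, a kinase-like membrane protein with no known ligand, on chromosome 6 (131299142 to 131353597), had 14.5, 16.5 and 13.6 normalized counts in control and 34.2, 28.2 and 38.1 in knockout cells. All knockout values were above all control values (1.17 ± 0.23, SE, adjusted p = 0.00930). Ltk, with 2.90 to 9.97 normalized counts in control and 2.93 to 12.0 in knockout cells, and Alk, with 2 reads in 1 control library and none in the others, are receptors of the ALKAL peptides and were not tested.

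Levels of different receptors were compared per length, as RPKM (counts divided by the exon length in kilobases and by the library size). In control cells Ddr1 stood first at 144 ± 10.2 RPKM (SD, n = 3), followed by Erbb2 at 16.1 ± 1.85, and their ranges did not overlap with each other or with the next receptor. Flt4 (8.83 ± 2.38), Ryk (8.70 ± 0.28) and Egfr (6.18 ± 0.60) followed, where the ranges of Flt4 and Ryk overlapped and those of Ryk and Egfr did not. From Egfr through Ptk7 (5.65 ± 0.28), Erbb3 (5.41 ± 0.83) and Pdgfrb (5.23 ± 0.74) to Pdgfra (4.76 ± 0.50) each receptor overlapped with its neighbour. Ddr2 (4.11 ± 0.034), Ror1 (2.72 ± 0.31) and Met (1.69 ± 0.18) were next without overlap of these neighbours, and Ror2 (1.65 ± 0.081), Erbb4 (1.39 ± 0.41) and Mst1r (1.21 ± 0.28) overlapped in turn with the receptor before. The 15 receptors from Ddr1 to Mst1r were above 1 RPKM in control cells, and Csf1r, Kit, Ret, Ntrk2, Insrr and Styk1, which were differentially expressed, were below it. In knockout cells Erbb4 moved from the 14th to the 7th place, at 5.49 ± 0.96 RPKM, where its range overlapped with those of Erbb3, Pdgfrb and Egfr.

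The ligand genes of these receptors numbered 40 in the table, of which 32 were tested, 5 were lower (15.6%, beside 6.56% of all genes) and 3 were higher (9.38%, beside 5.44%), with a median log2 fold change of 0.22. Besides Gdnf, Hgf, Egf, Ereg and Bdnf, these were midkine (Mdk), a heparin-binding growth factor assigned to ALK, at 320, 375 and 276 against 92.7, 68.7 and 86.2 (−1.97), Angpt4 (−1.004), a ligand of TEK, and Wnt5b (−1.32), a relative of Wnt5a, with adjusted p = 0.000441, 0.0218 and 0.0338. By the adjusted p-value alone 8 of 32 were lower and 7 higher, beside 17.1% and 18.2% of all genes. Gdnf, Hgf, Mdk, Egf, Ereg and Bdnf passed with any 1 library left out, whereas Angpt4 and Wnt5b passed in 2 and 1 of these 6 fits. Of 10 co-receptors 8 were tested, and Gfra1, Nrp1, Ngfr and Lrp4 were lower (4 of 8 or 50%, beside 6.56% of all genes) and none was higher (beside 5.44%), with a median of −0.83. By the adjusted p-value alone 6 of 8 were lower, beside 17.1% of all genes, Nrp2 and Sort1, which encodes the neurotrophin-binding sortilin, being the others. Gfra1 and Lrp4 passed with any library left out, and the count fell from 4 to 2 without control replicate 1 or 2 or knockout replicate 1 or 2, where Nrp1 and Ngfr were lost.

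Inside the cell, 3 of 40 tested adaptors and signal transducers were differentially expressed, all lower, a share of 7.5% that lies near the 6.56% of all genes. Dok6, an adaptor that binds RET, had 39.0, 40.7 and 52.4 normalized counts in control and 5.86, 5.63 and 6.01 in knockout cells (−2.89, adjusted p = 0.000543). Shc4, an adaptor of the SHC family, had 2398, 1977 and 2280 against 605, 642 and 563 (−1.88, adjusted p = 8.1e-05). Sh2b2, an adaptor of the SH2B family, was lower as well (−1.59, adjusted p = 0.000952). Each of these had knockout values below all control values, while the median of the list was −0.047 and 10 of 40 genes in each direction passed the adjusted p-value alone, beside 17.1% (lower) and 18.2% (higher) of all genes. Among 21 tested negative regulators 4 were lower (19%, beside 6.56% of all genes) and 2 higher (9.52%, beside 5.44%), with a median of 0.11. The tyrosine phosphatase Ptpn6 (−1.85, adjusted p = 0.00537), known from blood cells, the cytokine signalling inhibitors Socs2 (−1.76, adjusted p = 0.0260) and Socs1 (−1.54, adjusted p = 0.0315) and Lrig1, which lowers ErbB receptor protein (−1.05, adjusted p = 0.000139), were lower. Ptprb, a phosphatase of endothelial receptors (1.20, adjusted p = 0.0232), and Sh3kbp1, an adaptor in receptor endocytosis with CBL (1.41, adjusted p = 0.000619), were higher. Ptpn6, Lrig1 and Sh3kbp1 passed with any library left out. Socs2, Socs1 and Ptprb passed in 1, 2 and 2 of these 6 fits, with log2 fold changes from −2.52 to −1.44 for Socs2, −1.95 to −1.21 for Socs1 and 0.98 to 1.45 for Ptprb. The count fell from 6 to 3 without knockout replicate 1.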

How the data were processed

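RNA-seq libraries of 3 Pa1F/F and 3 Amh-pa1-/- Sertoli cell samples were grouped by their labels. Per the submitters' processing notes and the study's methods, NEBNext Ultra was the library kit, and the authors aligned reads to GRCm38 with HISAT2 2.1.0, counted reads per gene with HTSeq 0.6.0 and deposited the counts without normalization. The strand setting of the counting is not given in the sources used here. Csf1r and Insrr, which overlap more abundant genes on the opposite strand, are therefore reported as uncertain. Other receptors, among them Erbb2, Ddr1 and Ddr2, overlap genes with at most 40.7 normalized counts in any library, and these overlaps are not marked in the text. The table also holds the authors' own comparison (mean, fold changes and p-values), which was not used. No per-sample column was left out.

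Counts were filtered with edgeR's filterByExpr (minimum count 10, minimum total 15) and normalized by TMM. A normalized count is the count divided by the effective library size, times its mean over the 6 libraries. Genes were tested with edgeR's quasi-likelihood test, Benjamini-Hochberg adjusted over 14919 genes. Differential expression required an adjusted p-value under 0.05 together with a log2 fold change of 1 or more in either direction, as in the study. An exact two-sided permutation test of 3 against 3 cannot go below 0.1. Without molecular identifiers, intervals and floors cover counting error only. RPKM used exon lengths of GENCODE on GRCm39, as lengths only. On simulated counts of this comparison, 99.5% of 198 changed genes (log2 fold change 2) among 14925 tested were recovered. The simulation gave every gene the same spread setting and left out the uneven spacing of the replicates. It therefore says little of smaller changes or of genes with low counts or uneven replicates.

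The receptors, the lists of ligands, co-receptors, adaptors and regulators, the markers and the tests were chosen with earlier results of these data known, although the rule for the receptors is a list of names and uses no measured value. Every receptor is named; those past the adjusted p-value are given in every library; of the other lists, each differentially expressed gene and the partners of the differentially expressed receptors are named, and markers are given as counts and sums. Genes named beyond this rule were chosen after their values were seen. Alternatives were scaling by DESeq2 size factors or by library size, the Wald test of DESeq2, limma-voom, other filters, glmTreat, a replicate block, summed close pairs and leaving out each library. R 4.3.3, edgeR 4.0.16, limma 3.58.1, DESeq2 1.42.0 and Python 3.11.15 were used.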

Additional observations from a re-analysis of the deposited data

How the results depend on the processing

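Across 14 alternatives (those below other than glmTreat and the missing fold threshold), 300 of 316 receptor values kept their direction and their side of the thresholds, 10 lost the call, 2 gained it and 4 changed sign; none of the 10 differentially expressed receptors changed sign. The sign changes were in receptors that did not pass: Pdgfrb (0.0062 without knockout replicate 2, and from −1.05 to 0.0062 over the fits that leave out 1 library), Flt4 (0.16 without control replicate 2, from −0.21 to 0.16) and Mst1r (0.084 without control replicate 2 and 0.091 without knockout replicate 1, from −0.45 to 0.091). Leaving out 1 library gave 8 to 12 differentially expressed receptors (5 to 9 lower, 3 higher), 2 to 4 co-receptors, 7 to 9 ligands and 3 to 5 negative regulators. Requiring 10 counts in every library, took 6 receptors out of the test (Kit, Csf1r, Ret, Ntrk2, Insrr and Ntrk3, which are not in these tallies) and gave 5 differentially expressed ones (3 lower). Testing against a fold change of 2 with glmTreat left 538 genes (306 lower, 232 higher), 4 receptors (Erbb4, Csf1r, Ror1 and Insrr; 2 lower), 3 ligands, 0 co-receptors and 0 negative regulators. With the close pairs of replicates summed, which leaves 2 libraries per genotype, 883 genes (455 lower, 428 higher), 5 receptors (3 lower), 0 co-receptors and 2 negative regulators passed (834 of the 883 genes were also among the 1791); Pdgfra, Kit, Ret, Ntrk2 and Styk1 missed the adjusted p-value, at 0.0831, 0.0994, 0.0848, 0.0918 and 0.0821. With no fold threshold 5266 genes (2548 lower, 2718 higher), 15 ligands, 20 adaptors and 12 negative regulators passed. Scaling by library size only left 2 co-receptors. Same-numbered libraries correlated at 0.11, −0.16 and −0.18 in their deviations from the group mean, which gave no sign of pairing by replicate number. The highest correlation, 0.21, was between control replicate 2 and knockout replicate 3. Centring in groups of 3 ties these values to each other, so they cannot settle the question. With a replicate block 9 receptors were differentially expressed and Ntrk2 was not (adjusted p = 0.0567). Receptors with under 10 reads per library in a group, such as Kit, Ntrk2 and Insrr, are limited by depth.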
